A study of Rattus norvegicus with 6 samples.

Results

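The gene studied here was Ucn3, which encodes urocortin 3, and it was taken by its symbol as 1 of 17055 gene rows in the count tables. Pancreatic islets, the small clusters of endocrine cells that make insulin and other hormones, came from control Sprague-Dawley rats of 2 ages. The adult group held islets of 3-month-old males (12 weeks, n = 3 libraries), and the P10 group islets of 10-day-old rats (1.5 weeks, n = 3 libraries), whose sex the labels do not give. The libraries are labelled as biological replicates, and whether islets of several pups were pooled for a P10 replicate is not given. The comparison bears on the maturation of beta cells after birth, the subject named in the series title.

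Urocortin 3 is a secreted peptide of the corticotropin-releasing factor (CRF) family, whose other ligands are corticotropin-releasing hormone, urocortin and urocortin 2. It acts through the receptor CRHR2, a G protein-coupled receptor that raises cyclic AMP. In mice, beta cells store urocortin 3 in granules with insulin, delta cells carry the receptor, and the peptide increases somatostatin release, which in turn restrains insulin secretion. In mouse islets it is widely used as a marker of the mature beta cell, since it appears late in beta-cell development.

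The stretch just before the transcript start of rat Ucn3 is shown as context for the gene whose mRNA level is reported below. It is the RefSeq sequence of the GRCr8 build at chr17:71219406-71219610 on the + strand, 205 bases that end directly before the outermost annotated start. Capitals mark the motifs found in it.
Ucn3: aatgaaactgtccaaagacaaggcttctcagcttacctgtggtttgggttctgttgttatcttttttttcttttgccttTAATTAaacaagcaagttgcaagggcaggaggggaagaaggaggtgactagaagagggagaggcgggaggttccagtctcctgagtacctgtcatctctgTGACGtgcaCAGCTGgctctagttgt
Of 5 motifs searched on both strands, the homeodomain core TAATTA began 126 bases, the cyclic AMP element half-site TGACG 26 bases and an E-box (CANNTG, here CAGCTG) 17 bases before that start. Among 33469 rat promoter windows cut to the same length, 4.26% held TAATTA, 14.1% TGACG and 58.7% an E-box. A TATA box (TATAAA, in 10.2% of windows) and a MAF half-site (TGCTGA, in 12.6%) were not among the letters of this window. These are matches of letters, and no measurement here shows a factor bound to them. On GRCr8 no annotated gene overlaps Ucn3. The nearest genes with a row, Tubal3 on one side and Akr1c15 (listed as Akr1cl) on the other, were listed with no count and with at most 3 counts in any library.

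Reads assigned to genes numbered between 3307415 and 6280144 in adult libraries and between 3554194 and 6477825 in P10 libraries. The insulin transcripts Ins1 and Ins2, the most abundant in an islet, took from 46.6% to 52.3% of them in adult libraries and from 28.3% to 33.6% in P10 libraries. The tables listed low counts unevenly. In adult replicate 3, the deepest adult library, 403 genes stood at 0 that had at least 30 counts over the other 5 libraries. The deepest library, P10 replicate 1, had 11182 genes with a count and 74 with exactly 1 count, whereas P10 replicate 4, with 3554194 gene counts, had 12369 and 493. A 0 in these tables is therefore given as listed, not as absence. Ucn3 itself had at least 284 reads in every library.

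Ucn3 mRNA was higher in adult than in P10 islets. The gene had 404, 320 and 803 reads in adult replicates 1, 2 and 3, and 553, 383 and 284 reads in P10 replicates 1, 3 and 4. Read counts were then divided by each library's effective size, its gene counts times a trimmed mean of M values (TMM) factor, and expressed as CPM. The adult libraries held 139.7, 117 and 147 CPM, and the P10 libraries 75.0, 56.9 and 68.9 CPM. The lowest adult library, replicate 2, lay above the highest P10 library, replicate 1, so the groups did not overlap. The 95% Poisson intervals, which cover counting error only, were also apart, with a lower bound of 104.8 CPM in adult replicate 2 and an upper bound of 81.5 CPM in P10 replicate 1. The level averaged 135 ± 15.7 CPM in adult islets and 66.9 ± 9.21 CPM in P10 islets (SD, n = 3 each). Over the 9 pairs of an adult with a P10 library the ratio ran from 1.56 to 2.59.

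In edgeR's quasi-likelihood test over all genes, the Ucn3 log2 fold change, adult over P10, was 1.01 ± 0.15 (SE), a 2.02-fold rise with a false discovery rate (FDR) of 1.49e-04. Of 10124 genes tested, 12.5% were called higher and 13.8% lower in adults at an FDR under 0.05. A larger log2 fold change than that of Ucn3 was fitted for 604 genes, or 5.97% of those tested, and 422 of these were called. Replicates of one age differed by more than counting error. The coefficient of variation was 11.6% among adult and 13.8% among P10 libraries, against 4.78% and 5.14% from counting. In bulk islets, more beta cells and more Ucn3 mRNA per beta cell cannot be told apart.

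**Figure D1:**
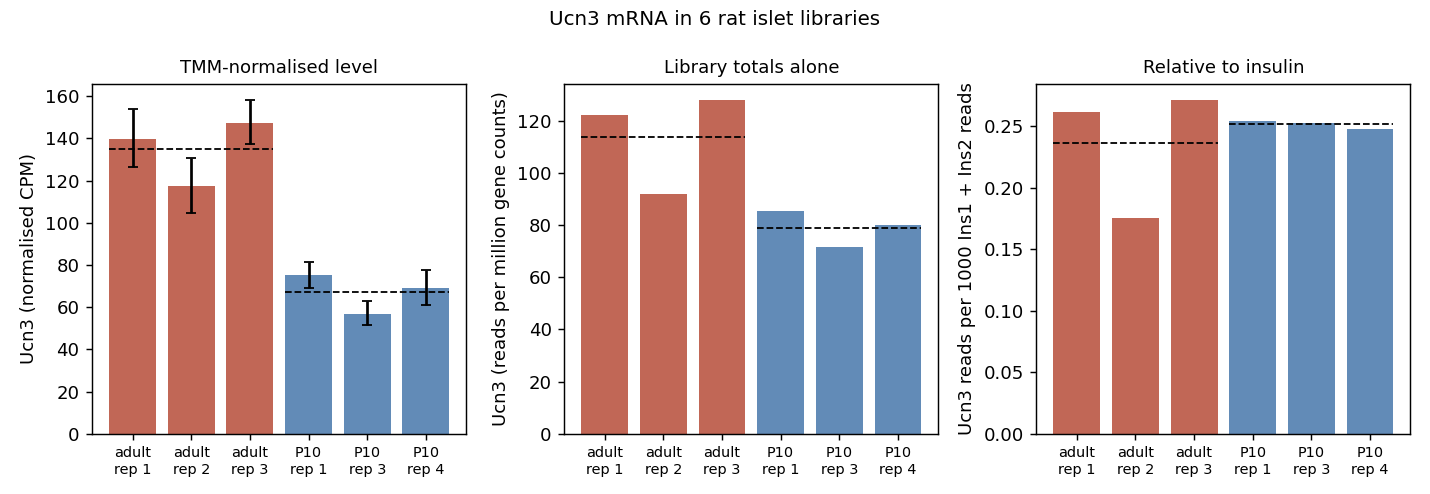
Ucn3 in each library as TMM-normalised CPM (left, bars with 95% Poisson intervals), as reads scaled to library totals alone (middle) and as reads per 1000 reads of Ins1 plus Ins2 (right); dashed lines are group means over 3 libraries. The adult libraries sit above all P10 libraries on the left and in the middle, and the groups overlap on the right, where adult replicate 2 is lowest.

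The size of the rise depended on what Ucn3 was measured against. On library totals alone, with insulin reads left in and no TMM factor, adult replicates 1, 2 and 3 had 122, 91.9 and 128 CPM of Ucn3 and P10 replicates 1, 3 and 4 had 85.4, 71.6 and 79.9 CPM. The groups still did not overlap, but adult replicate 2 was only 1.08 times P10 replicate 1. With these library totals in the edgeR model the log2 fold change was 0.53 ± 0.17 (SE, FDR = 0.0186). The same scaling moved the median log2 fold change of all tested genes to -0.52, against -0.029 with TMM factors, so Ucn3 stood about as far above the median gene in both. Taking the insulin reads out of the totals gave 0.94 ± 0.15 (SE, edgeR FDR = 2.72e-04). Leaving out any 1 of the 6 libraries gave log2 fold changes from 0.91 to 1.12 (edgeR FDR from 1.13e-04 to 0.00168).

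**Figure D2:**
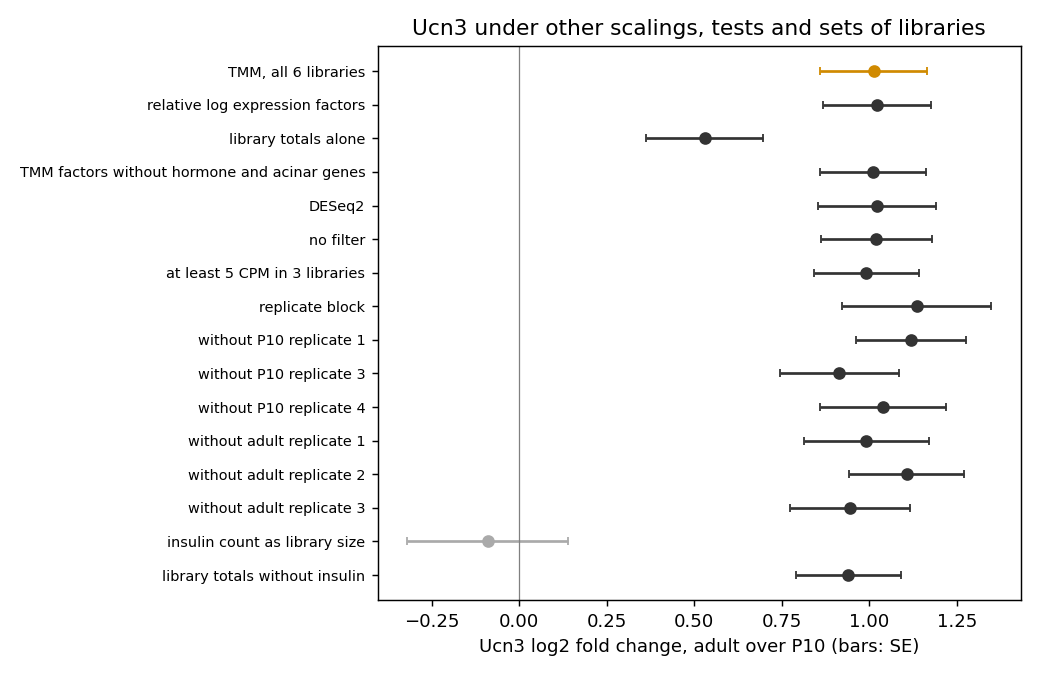
Log2 fold change of Ucn3, adult over P10, with its SE under each scaling, test and set of libraries; black points passed an FDR of 0.05 and the grey point did not. All settings lie between 0.53 and 1.14 except the one that uses the insulin count as library size, at -0.090.

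Relative to insulin, Ucn3 did not differ detectably between the ages. Adult replicates 1, 2 and 3 had 0.262, 0.176 and 0.271 Ucn3 reads per 1000 reads of Ins1 plus Ins2, and P10 replicates 1, 3 and 4 had 0.254, 0.252 and 0.248. The P10 libraries were nearly equal, and the adult libraries lay on both sides of them, with replicate 2, the library with the highest insulin share, below all others. The ratio averaged 0.236 ± 0.0526 in adult islets and 0.252 ± 0.00318 in P10 islets (SD, n = 3 each), and the exact two-sided permutation p was 1.0. Adult over P10, single pairs of libraries ran from 0.691 to 1.09, a range that is not an interval for the group difference. With the insulin count as library size, edgeR gave a log2 fold change of -0.090 ± 0.23 (SE, FDR = 0.721). A difference of the size of that SE or somewhat larger, in either direction, is not resolved. Without adult replicate 2 the log2 ratio of group means turned to 0.083, against -0.091 with all libraries. The coding sequences of the 2 insulin genes are nearly the same, and since only uniquely aligned reads were counted, their own levels are uncertain. The share of non-unique alignments was higher in every P10 library than in any adult library, and its part in the ratio to insulin was not tested. With Ins2 alone as the denominator the log2 ratio was -0.12, and with Ins1 alone -0.069.

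Ratios of Ucn3 to 5 other islet transcripts or pairs were compared in the same way, and with 3 against 3 libraries no exact p can fall below 0.1. Relative to Iapp, islet amyloid polypeptide, which beta cells secrete with insulin, Ucn3 stood at 35.1 ± 2.57 reads per 1000 in adult islets and 41.1 ± 10.1 in P10 islets (SD, n = 3 each), with overlapping groups (exact permutation p = 0.6, adjusted over 6 ratios 0.72). Relative to Slc2a2, the glucose transporter GLUT2, it was 0.153 ± 0.0109 in adult and 0.178 ± 0.0119 in P10 islets (SD, n = 3 each), lower in every adult library. Relative to the beta-cell transcription factors Pdx1 plus Nkx6-1 it was 0.517 ± 0.0404 in adult and 0.366 ± 0.0513 in P10 islets (SD, n = 3 each). Relative to the granins Chga plus Chgb, granule proteins of all endocrine cells, it was 41.6 ± 6.87 reads per 1000 in adult and 27.9 ± 2.20 in P10 islets (SD, n = 3 each). Relative to Sst, the somatostatin of delta cells, it was 113 ± 17.2 reads per 1000 in adult and 67.5 ± 8.54 in P10 islets (SD, n = 3 each). In the last 3 ratios every adult library was above every P10 library. For these 3 and for Slc2a2 the exact permutation p was 0.1, the smallest possible, and 0.15 when adjusted over the 6 ratios. In the pair of transcription factors, Pdx1 had more reads than Nkx6-1 in every library. With TMM factors Nkx6-1 rose 2.04-fold and Ucn3 2.02-fold, whereas Pdx1 did not pass in edgeR. The ratio to Nkx6-1 alone was not tested, and the ratio to the pair does not show that Ucn3 rose more than Nkx6-1.

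**Figure D3:**
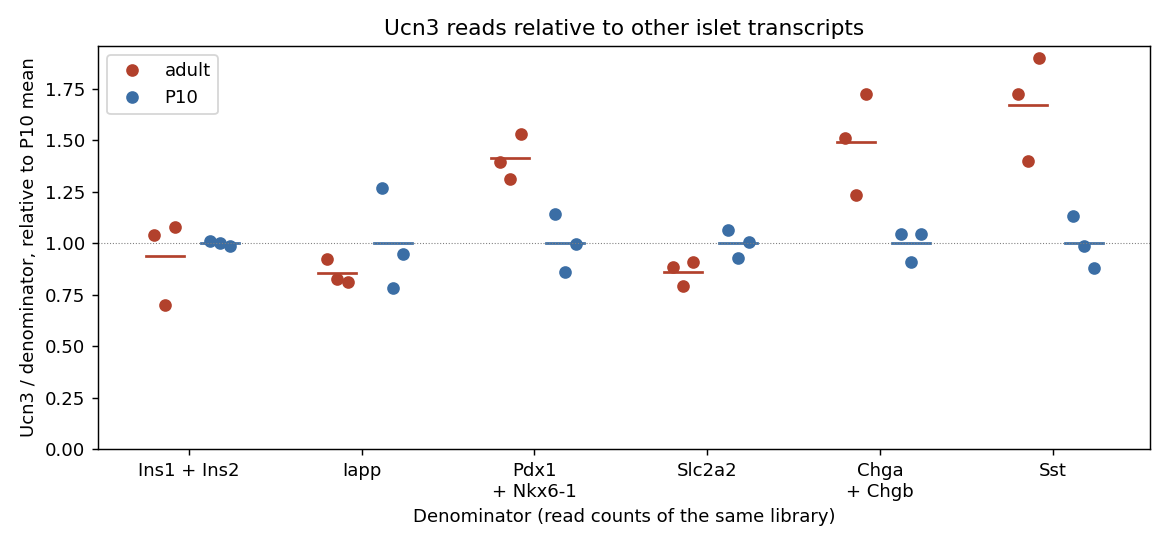
Ucn3 reads divided by the reads of each denominator in the same library, set to 1 at the P10 mean; points are libraries and short lines group means. Adult libraries sit above P10 libraries for Pdx1 plus Nkx6-1, Chga plus Chgb and Sst, below them for Slc2a2, on both sides of them for insulin, and among them for Iapp.

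Ucn3 moved with most genes of the mature beta cell. In a list of 23 such genes, 22 had a row and were tested, and 16 rose, Ucn3 included, while none fell and 6 did not pass, against 12.5% called higher over all genes. The groups did not overlap, with adults higher, for 19 of the 22, against 20.0% of all tested genes. The median log2 fold change of the list was 0.81, compared with -0.029 over all tested genes. The list holds Ucn3 itself and was chosen with earlier results of these data known, so its counts are no separate support. With library totals alone 9 rose and 1 fell, while 343 of all 10124 tested genes were called higher and 3612 lower. In this list 8 genes had a larger log2 fold change than Ucn3 and 13 a smaller one. Directly above it came Nkx6-1, which keeps beta-cell identity (1.03 ± 0.15, SE), Ins1 (1.09 ± 0.12) and Ins2 (1.17 ± 0.12). Directly below it came Trpm5, a cation channel of beta cells (0.95 ± 0.28), Glp1r, the receptor of the incretin GLP-1 (0.90 ± 0.16), and Gipr, the receptor of the incretin GIP (0.72 ± 0.15). All 6 neighbours in this order passed in edgeR (FDR from 2.63e-06 for Ins2 to 0.0191 for Trpm5), and whether their folds differ from that of Ucn3 was not tested. The Gipr call was lost under library totals alone (edgeR FDR = 0.274). The Trpm5 call was lost under library totals alone, under the replicate block, and when adult replicate 1 or P10 replicate 4 was left out (edgeR FDRs of 0.0693 to 0.259).

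Syt4, a synaptotagmin of granule release, had the largest log2 fold change of the list, at 198 ± 29.4 CPM in adult and 31.8 ± 5.25 CPM in P10 islets (SD, n = 3 each; edgeR FDR = 1.51e-08). Slc2a2 rose 2.34-fold, to 877 ± 41.1 CPM in adult islets, against 375 ± 27.5 CPM in P10 islets (SD, n = 3 each; edgeR FDR = 1.31e-06). Within the list the lowest log2 fold change was that of Isl1, a transcription factor of all islet endocrine cells, which did not pass (edgeR FDR = 0.864). It measured 42.3 ± 3.42 CPM in adult and 44.0 ± 2.41 CPM in P10 islets (SD, n = 3 each). Under library totals alone it was called lower (edgeR FDR = 0.0323), as were 3612 of all 10124 tested genes. Pdx1, the other factor used as a denominator, did not pass either, at 150 ± 5.42 CPM in adult and 129 ± 5.12 CPM in P10 islets (SD, n = 3 each; edgeR FDR = 0.213). Its direction was the opposite one with library totals alone.

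**Figure D4:**
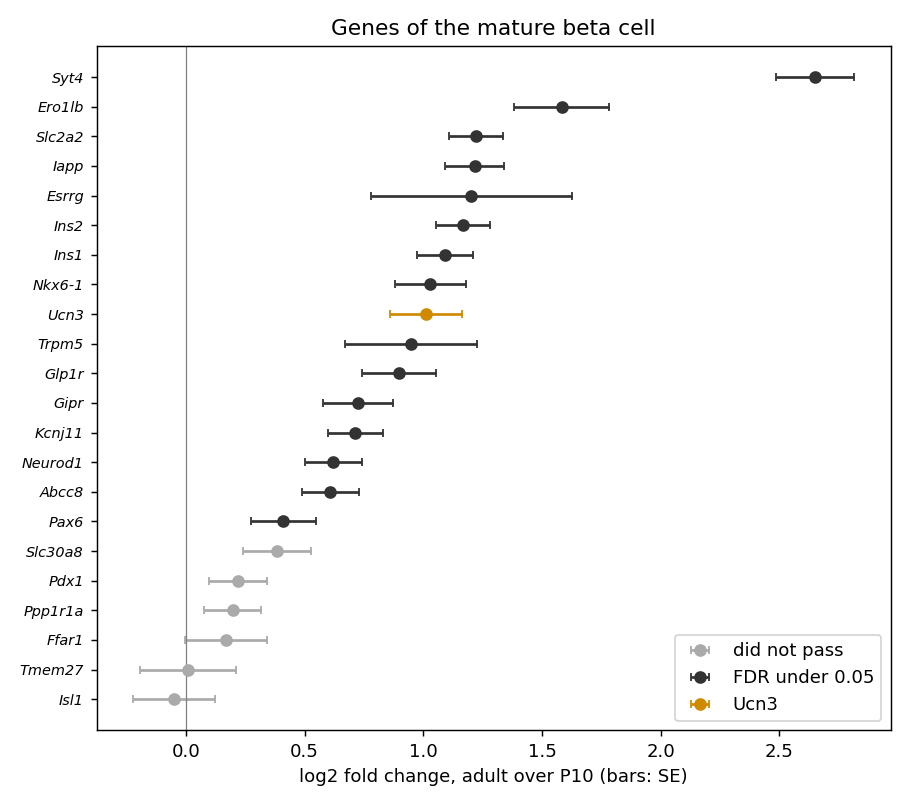
Log2 fold change, adult over P10, with its SE from edgeR for the 22 tested genes of the mature beta cell, in order of size. Ucn3 (orange, 1.01) lies between Nkx6-1 and Trpm5, 8 places below the top of the order at Syt4, and grey points did not pass an FDR of 0.05.

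Ucn3 was the only one of 7 genes of the CRF family with enough reads to be tested. The family's other ligands were scarce or listed at 0. Ucn2, urocortin 2, which has a row of its own, had 1, 0 and 1 reads in adult replicates 1, 2 and 3, and 19, 24 and 3 reads in P10 replicates 1, 3 and 4. Its few reads thus ran opposite to those of Ucn3, with adults lower in every library, but by only 1 read against 3 at the closest. Adult over P10, its ratio of normalised counts was 0.0716 with an exact 95% counting interval from 0.00842 to 0.274. That interval leaves out the spread between replicates. The default filter removed Ucn2. Without a filter it did not pass (edgeR FDR = 0.0866), nor when adult replicate 1, 2 or 3 was left out (edgeR FDR = 0.0998, 0.161 and 0.105). When P10 replicate 4 was left out it passed (edgeR FDR = 0.0411). Crh, Ucn and Crhbp, the binding protein of the family, were listed at 0 in all 6 libraries. A row at 0 throughout need not be an unexpressed gene here, since Col1a2, a collagen chain, was listed at 0 in all libraries that held between 343 and 12853 reads of its partner chain Col1a1.

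The receptor of urocortin 3, Crhr2, was near the limit of these libraries. It had 2, 3 and 9 reads in adult replicates 1, 2 and 3, and 0, 0 and 7 reads in P10 replicates 1, 3 and 4. The ages overlapped and no difference was detectable with so few reads. P10 replicate 1, listed at 0, was the deepest library, so depth alone does not set this limit, and low counts were listed unevenly. Crhr1, the receptor that prefers corticotropin-releasing hormone, had no reads in the adult libraries and 0, 3 and 6 in P10 replicates 1, 3 and 4. Both fell below the filter and were not tested.

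On the delta-cell side of the circuit, no gene passed. Sst, somatostatin, had 1201, 1244 and 1151 CPM in adult replicates 1, 2 and 3 and 982, 855 and 1161 CPM in P10 replicates 1, 3 and 4, so that adult replicate 3 lay below P10 replicate 4. Its log2 fold change was 0.26 ± 0.12 (SE, edgeR FDR = 0.128). It passed without P10 replicate 4 (edgeR FDR = 0.0344), and its direction was the opposite one with library totals alone. Hhex, a transcription factor of delta cells, was lower in every adult library, as were 22.3% of all tested genes. It measured 4.04 ± 1.19 CPM in adult and 7.20 ± 0.602 CPM in P10 islets (SD, n = 3 each) and did not pass (edgeR FDR = 0.236). Rbp4, a retinol-binding protein that delta cells express, had 25.7 ± 2.68 CPM in adult and 35.7 ± 6.96 CPM in P10 islets (SD, n = 3 each; edgeR FDR = 0.124), and passed as lower without P10 replicate 1 (edgeR FDR = 0.0437). Both Hhex and Rbp4 passed as lower under library totals alone (edgeR FDR = 0.0422 and 0.00393), as did 3612 of all 10124 tested genes. Ghsr, the ghrelin receptor, had at most 14 reads in a library and was not tested.

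Of the 5 somatostatin receptors, through which delta cells act back on their neighbours, 3 were tested and none passed. Sstr3 was level, at 49.9 ± 3.02 CPM in adult and 49.4 ± 8.33 CPM in P10 islets (SD, n = 3 each; edgeR FDR = 0.961), and its sign varied with the settings. Sstr2 had 18.9 ± 1.92 CPM in adult and 15.8 ± 2.12 CPM in P10 islets (SD, n = 3 each; edgeR FDR = 0.541). Sstr5 had 14, 6 and 36 reads in adult replicates 1, 2 and 3 and 0, 16 and 12 in P10 replicates 1, 3 and 4 (edgeR FDR = 0.268). Sstr1 had reads in 1 library of each age, at most 8, and Sstr4 was listed at 0 throughout.

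Most genes of the granule, in which peptide hormones are processed and stored, rose with Ucn3. Of 12 genes, 10 rose, none fell and 2 did not pass, against 12.5% called higher over all genes, and the median log2 fold change was 0.89, against -0.029 over all genes. Ptprn, a granule membrane protein, reached 1846 ± 133 CPM in adult islets, against 499 ± 16.8 CPM in P10 islets (SD, n = 3 each; edgeR FDR = 8.60e-09). Pcsk1, a convertase that cuts prohormones, rose 2.68-fold (edgeR FDR = 2.99e-07), so both exceeded the 2.02-fold rise of Ucn3. Chga, chromogranin A, rose 1.73-fold (edgeR FDR = 1.90e-04), a call lost under library totals alone (FDR = 0.0757). Chgb, chromogranin B, was 1282 ± 96.4 CPM in adult and 1251 ± 60.3 CPM in P10 islets (SD, n = 3 each) and did not pass (edgeR FDR = 0.843). This list too was chosen with earlier results of these data known. Under library totals alone 6 of the 12 rose and 2 fell, while 343 of all 10124 tested genes were called higher and 3612 lower.

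Among 13 tested genes of cyclic AMP signalling, the pathway that CRHR2 engages, 3 rose, none fell and 10 did not pass, with a median log2 fold change of 0.20. Over all genes 12.5% were called higher and the median was -0.029, so with 13 genes this count is no result about the pathway. Crem, a transcription factor that responds to cyclic AMP, rose 2.79-fold (edgeR FDR = 1.82e-05), and Prkaca, a catalytic subunit of protein kinase A, 1.70-fold (edgeR FDR = 4.22e-04). The Prkaca call was lost under library totals alone (FDR = 0.154). Rapgef3, an exchange factor activated by cyclic AMP, did not pass (edgeR FDR = 0.248), at 1.82 ± 1.92 CPM in adult and 4.25 ± 1.37 CPM in P10 islets (SD, n = 3 each). Under library totals alone 1 of the 13 rose and 1 fell, while 343 of all 10124 tested genes were called higher and 3612 lower. The genes of cyclic AMP signalling act downstream of many receptors.

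Genes that mature beta cells keep low went the opposite way to Ucn3. Of 10, 9 were tested and 7 fell, none rose and 2 did not pass, against 13.8% called lower over all genes. Dlk1, an imprinted inhibitor of differentiation, measured 1.87 ± 0.731 CPM in adult and 92.1 ± 1.28 CPM in P10 islets (SD, n = 3 each; edgeR FDR = 1.09e-09). Ldha, lactate dehydrogenase A, measured 92.3 ± 13.6 CPM in adult and 307 ± 23.6 CPM in P10 islets (SD, n = 3 each; edgeR FDR = 2.88e-07). The list also holds genes that stromal cells express, and it too was chosen with earlier results of these data known.

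Markers of other cells moved in the same libraries, where 12.5% of all genes were called higher and 13.8% lower. All 5 tested fibroblast markers fell, and the 6 together summed to between 236 and 323 CPM in adult libraries and between 2466 and 3162 CPM in P10 libraries. Of 3 tested duct markers 2 fell, and the summed level ran from 30.4 to 42.4 CPM in adults and from 843 to 907 CPM at P10. Of 6 alpha-cell markers 1 fell, with sums from 13317 to 17963 CPM in adults and from 24897 to 27979 CPM at P10. The counts of the remaining lists rest on few genes. Of 6 endothelial markers 1 fell, of 5 leukocyte markers 1 fell, of 2 tested red cell markers 1 fell, of 2 tested Schwann cell markers 1 fell, and of 7 acinar markers 2 rose and 3 fell. Acinar sums overlapped, from 906 to 3650 CPM in adults and from 2717 to 3946 CPM at P10, but only through adult replicate 3. That library had 5126 reads of the acinar gene Prss1, against 564 and 549 in adult replicates 1 and 2. Endothelial sums ran from 70.9 to 108 CPM in adults and from 97.5 to 166 CPM at P10, and leukocyte sums from 85.0 to 141 CPM in adults and from 99.6 to 233 CPM at P10. Red cell sums ran from 94.8 to 238 CPM in adults and from 179 to 234 CPM at P10, and Schwann cell sums from 6.57 to 12.8 CPM in adults and from 17.7 to 28.6 CPM at P10. Apart from Col1a2 no marker with a row was listed at 0 in every library. The part of these cells in the Ucn3 difference was not tested.

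Genes whose profile over the 6 libraries lay close to that of Ucn3 included Slc11a2, the nearest, Slc7a5, Tmem66 and Mdh1. Nearness was the root mean square difference of log2 CPM after subtracting each gene's own mean, over 8779 other genes averaging at least 5 CPM. It was 0.048 for Slc11a2, the metal-ion transporter DMT1, 0.061 for Slc7a5, a large neutral amino acid transporter, 0.085 for Tmem66 and 0.089 for Mdh1, cytosolic malate dehydrogenase. The median over all compared genes was 0.62 and 1% of them lay within 0.17. Slc11a2 had 82.7, 72.9 and 88.3 CPM in adult replicates 1, 2 and 3, and 44.6, 36.0 and 39.3 CPM in P10 replicates 1, 3 and 4. Like Ucn3 it was lowest in replicate 2 among adults and in replicate 3 at P10, and so were Slc7a5 and Tmem66, while Mdh1 was lowest in P10 replicate 4. The measure rewards both a fold and an order of replicates near those of Ucn3, so neither likeness is separate support. The 4 genes rose between 1.95-fold and 2.10-fold.

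**Figure D5:**
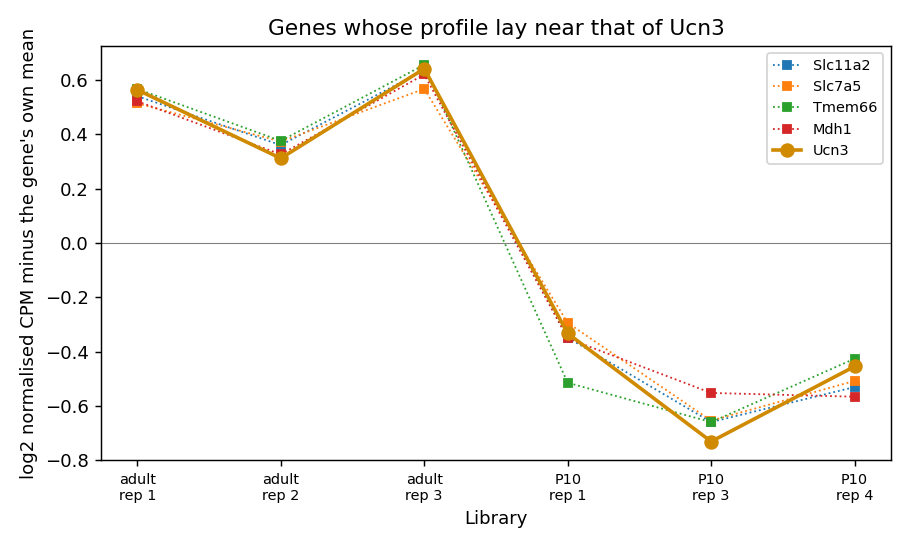
Log2 normalised CPM minus the gene's own mean over the 6 libraries, for Ucn3 (orange) and 4 genes close to it; each point is 1 library. All 5 genes are above their mean in the adult libraries and below it in the P10 libraries, and the nearest, Slc11a2, differs from Ucn3 by 0.048 (root mean square, log2).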

How the data were processed

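Polyadenylated RNA of 6 islet samples was sequenced single-end without strand information, per the labels' protocols. The submitters' processing notes name the rn5 build, Bowtie2, TopHat2 2.0.10 and HTSeq, and also DESeq and edgeR with no role given. The deposited values used are raw read counts per gene symbol. The 5 counter rows of each table were left out of library sizes. Of genes and counters together, non-unique alignments made up between 15.1% and 17.8% in adult and between 23.4% and 27.7% in P10 libraries. A deposited table of all libraries repeats these counts and was not used.

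All genes were tested together with edgeR 4.0.16 in R 4.3.3 (quasi-likelihood, age as the only term, TMM factors, filterByExpr with a minimum count of 10). This kept 10124 genes, over which p-values were adjusted by Benjamini-Hochberg, with 0.05 as the threshold. The common biological coefficient of variation was 23.7%. Standard errors (SE) were obtained from each log2 fold change and its F statistic. Ratios of single genes were compared by exact permutation (two-sided). P-values measure the spread between the labelled replicates. No pair of replicates agreed within sampling noise. The fit was checked on simulated counts.

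Ucn3 and the lists were chosen with earlier results of these data known. Named genes are Ucn3, the CRF family, delta-cell and somatostatin receptor genes, the denominators, neighbours in the genome and in the order of the maturity list, its ends, the nearest profiles, and per other list the 2 smallest p in its main direction and 1 in the other. G6pc2, Rapgef4, Krt7 and Sox9 were not analysed here, and some genes that the rule takes are not reported here. Alternatives were other scalings, DESeq2 1.42.0, other filters, the replicate number as a block and leaving out each library; library totals without insulin were added after seeing the data.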

Additional observations from a re-analysis of the deposited data

How the results depend on the processing

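The Ucn3 rise kept its direction and its side of the threshold under 14 of 15 alternatives, with log2 fold changes from 0.53 (library totals alone) to 1.14 (replicate block, edgeR FDR = 0.00386). The exception was the insulin count as library size, at -0.090, which by construction measures Ucn3 against insulin. Genes called over the whole table numbered 1265 higher and 1394 lower, 343 and 3612 with library totals alone, and 679 and 729 with the replicate block. In the block fit, adult replicate 2 and P10 replicate 4 had no library of the other age with their number. They therefore did not inform its estimates of the age difference. Leaving out single libraries gave from 923 to 1262 higher and from 1040 to 1266 lower. The titles share the numbers 1 and 3 between the ages, with correlations of deviations of -0.027 and -0.0043. No pairing by number was seen, but so few correlations cannot exclude one. The log2 ratio of Ucn3 to insulin, -0.091, ran from -0.20 to 0.083 without single libraries, above 0 only without adult replicate 2, and the other 5 ratios kept their direction in those runs. Signs turned under library totals alone for Chgb (-0.45), Pdx1 (-0.27), Sst (-0.23), Sstr2 (-0.25) and Sstr3 (-0.47), and with insulin taken out of the totals for Chgb (-0.037) and Sstr3 (-0.058). Sstr3 also turned with the stricter filter of 5 CPM (-0.0060), under the block (-0.047) and without P10 replicate 3, P10 replicate 4 or adult replicate 3 (from -0.063 to 0.17 over the 6 libraries), and Isl1 turned without adult replicate 1 (from -0.12 to 8.58e-04). None of these reversed values was called except Chgb under library totals alone (edgeR FDR = 0.0129). The causes were not tested. Few reads, at most 24 in a library, and the uneven listing of low counts limit what can be said of Crhr2, Crhr1 and Ucn2.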
